A study of Caenorhabditis elegans with 32 samples.

Results

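The vacuolar H+-ATPase (V-ATPase) subunits and the lysosomal proteases of *C. elegans* were followed in whole-animal RNA-seq of 4 genotypes on 2 media. They were chosen by the start of their names, with earlier results of these data known. In this way 47 protein-coding genes were taken whose symbol begins with *vha-*, *asp-*, *cpr-* or *cpl-*. The count table holds 20528 protein-coding genes and 46589 genes of any kind. Of the 47, 20 encode V-ATPase subunits (9 of the V1 sector, 9 of the V0 sector and 2 accessory subunits) and 27 encode proteases (18 aspartic proteases, 8 cathepsin B-like cysteine proteases and the cathepsin L *cpl-1*). The 4 genotypes were the double strain *pgph-2 o/e; hlh-30(tm1978)*, its parents *hlh-30(tm1978)* and *pgph-2 o/e*, and N2 wild type (WT). Each was grown on plates with 2% glucose or on plain nematode growth medium (NGM), with 4 libraries in each of the 8 groups. In *pgph-2 o/e*, extra copies of the glycerol-3-phosphate phosphatase gene *pgph-2* are driven by its own promoter. They were integrated into the genome as 1 line with a *myo-2* driven mCherry marker in the pharynx, a marker that N2 does not carry. *hlh-30(tm1978)* is a deletion allele present in every cell from the egg on, and all animals were synchronised and labelled L4/young adult. The question asked here is which members need *hlh-30*, so on each medium the mutants were compared with their *hlh-30*-positive partners: *hlh-30* with WT, and the double strain with *pgph-2 o/e*.

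The V-ATPase is a rotary proton pump: the cytosolic V1 sector (*vha-8* to *vha-15* and *vha-18*) burns ATP, and the membrane V0 sector (*vha-1* to *vha-7*, *vha-16*, *vha-17*) carries protons into the lysosome and, in epithelia, across the apical membrane. The acid it makes activates the aspartic proteases, which resemble mammalian cathepsin D, and the cysteine cathepsins, which digest what endocytosis and autophagy deliver. HLH-30 is the worm counterpart of mammalian TFEB, a transcription factor known for switching on lysosomal and autophagy genes, V-ATPase subunits and cathepsins among them in mammalian cells.

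Libraries held 16750042 to 29794842 counts. The *hlh-30* transcript was lower in all 4 comparisons of mutants with their partners (log2 fold change -0.86 on NGM and -0.56 on glucose against WT, -1.32 on NGM and -0.99 on glucose against *pgph-2 o/e*). The *pgph-2* transcript was higher in *pgph-2 o/e* than in WT by 0.87 on NGM and 0.86 on glucose. It also differed within the pairs read for *hlh-30*: in the double strain relative to *pgph-2 o/e* it rose by 0.87 on NGM and fell by 0.59 on glucose, and in *hlh-30* relative to WT on glucose it fell by 0.92 (log2 scale, all called). The part of these *pgph-2* differences in the members' values was not tested. One library stands apart: replicate 1 of *pgph-2 o/e* on NGM had summed V-ATPase levels of 10760 CPM (counts scaled to a common library total with the TMM factors of edgeR), against 7403 to 8230 CPM in the other 3 libraries of its group, and summed protease counts of 33260 CPM, against 19780 to 23620 CPM. Family counts and medians of the double strain against *pgph-2 o/e* on NGM are also given without it. Marker genes of several tissues also moved with genotype. Sperm genes, for example, summed to 284 to 974 CPM in *hlh-30* and 1257 to 2211 CPM in WT on NGM. The values stand with the results below and in the plot of summed levels.

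Both families were abundant. On the per-length scale (FPKM, here CPM per kilobase of gene length, mean of the 8 groups), *asp-1* averaged 3845 FPKM and ranked 15 among protein-coding genes. It was followed by *asp-6* at 1747, *asp-3* at 1360, *cpr-5* at 1196, the proteolipid *vha-2* at 1041 and *cpl-1* at 904 FPKM. Most V-ATPase subunits lay between 218 FPKM (*vha-15*) and 1041 FPKM (*vha-2*). The low ones were *vha-5* (74.4), *vha-18* (13.5) and *vha-7* (12.2): *vha-5* and *vha-7* encode alternative a subunits of V0 and *vha-18* a second H subunit of V1. At the bottom, *asp-18* and *asp-19* had no counts in any library. *asp-7*, *asp-11*, *asp-15*, *asp-16* and *cpr-2* were too low to be tested in any comparison, and *asp-9*, at 0.342 FPKM, was tested in some. Of the 27 proteases 22 lie on chromosome V, several side by side: *asp-6*, *asp-12*, *asp-5* and *asp-11* follow each other with 316, 316 and 571 bases between them (build WBcel235). *vha-1* and *vha-2* lie 99 bases apart on one strand of chromosome III. *asp-4*, *vha-5*, *vha-17* and *vha-19* overlap a protein-coding gene on the other strand; the reads were counted without strand by the software's default, so reads of the 2 strands are not separated there.

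Among the cysteine cathepsins, *cpl-1*, *cpr-4* and *cpr-6* fell on NGM when *hlh-30* was missing, by 0.58 to 1.70 on the log2 scale in both backgrounds. *cpr-3* and *cpr-8* were not called lower in any of the 4 comparisons. The log2 fold changes of *cpr-3* were positive in all 4 and those of *cpr-8* negative. On NGM, 3 of 19 proteases tested fell in *hlh-30* relative to WT and 1 rose, where 9.08% of all 15039 genes tested fell and 6.08% rose (edgeR's quasi-likelihood test, Benjamini-Hochberg adjusted p of at most 0.05). On glucose 12 of 20 fell and 2 rose, against 23.7% and 21.4% of all genes. Without *hlh-30* in the *pgph-2 o/e* background, 7 of 19 fell and 2 rose on NGM, against 22.6% and 19.8%, and 8 of 19 fell and none rose on glucose, against 7.05% and 6.19%. The median log2 fold change of the proteases was -0.08, -0.22, -0.28 and -0.21 in these 4 comparisons in the order given, beside 0.01, 0.02, 0.01 and 0.00 for all genes tested. The third of these medians, -0.28, was -0.06 without replicate 1 of *pgph-2 o/e*. In that fit 5 of 20 proteases rose, against 24.1% of all genes, and 9 fell, against 25.5%.

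*cpl-1* encodes cathepsin L, an essential protease of yolk and endosomal digestion, at V:16592571-16595346 on the minus strand. On NGM it had 806, 937, 1013 and 585 CPM in *hlh-30*, against 1462, 1256, 1151 and 1141 CPM in WT. The *hlh-30* libraries all lay below the WT libraries (log2 fold change -0.58 ± 0.15 SE, edgeR adjusted p = 0.033), but the call was lost when any 1 of 5 of the 8 libraries was left out. In the *pgph-2 o/e* background the gap was wider: 688, 592, 712 and 661 CPM in the double strain, against 2315, 1510, 1414 and 1601 CPM in *pgph-2 o/e* (-1.36 ± 0.17, edgeR adjusted p = 7.28e-05; -1.17 without replicate 1 of *pgph-2 o/e*). On glucose *cpl-1* stood at 615, 661, 949 and 637 CPM in *hlh-30*, against 1437, 1475, 1510 and 1587 CPM in WT (-1.07 ± 0.13, edgeR adjusted p = 0.000912). There the double strain and *pgph-2 o/e* overlapped, at 882, 857, 1032 and 952 CPM against 1116, 998, 949 and 1019 CPM, and the difference of -0.17 ± 0.07 did not pass (edgeR adjusted p = 0.16).

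The cathepsin B-like *cpr-6* (X:6607203-6609046, plus strand) was lower in the same pairs. On NGM it measured 393, 445, 507 and 281 CPM in *hlh-30*, against 856, 680, 615 and 553 CPM in WT (-0.73 ± 0.18, edgeR adjusted p = 0.0274). The *pgph-2 o/e* pair had 376, 309, 347 and 331 CPM in the double strain, against 827, 826, 758 and 782 CPM in *pgph-2 o/e* (-1.22 ± 0.11, edgeR adjusted p = 6.43e-06). Neither pair overlapped. The call against WT was lost without replicate 1 or 2 of WT or replicate 1 or 2 of *hlh-30*. On glucose it had 368, 298, 439 and 358 CPM in *hlh-30*, against 628, 873, 680 and 837 CPM in WT (-1.05 ± 0.14, edgeR adjusted p = 0.00131). There 407, 391, 451 and 424 CPM in the double strain overlapped with 568, 456, 328 and 408 CPM in *pgph-2 o/e* (-0.11 ± 0.13, edgeR adjusted p = 0.64).

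*cpr-4*, a secreted cathepsin B at V:6614674-6615845 (plus strand), was the 1 member that was lower without *hlh-30* in both backgrounds and on both media. It had 561, 570, 610 and 345 CPM in *hlh-30*, against 806, 961, 749 and 898 CPM in WT on NGM (-0.71 ± 0.16, edgeR adjusted p = 0.0199). Within the *pgph-2 o/e* background the values were 422, 365, 506 and 553 CPM in the double strain, against 2116, 1182, 1281 and 1447 CPM in *pgph-2 o/e* (-1.70 ± 0.21, edgeR adjusted p = 5.36e-05). On glucose the values were 299, 479, 658 and 313 CPM in *hlh-30*, against 1091, 744, 1108 and 883 CPM in WT (-1.13 ± 0.25, edgeR adjusted p = 0.0077). In the *pgph-2 o/e* background it had 581, 579, 661 and 589 CPM in the double strain, against 718, 702, 890 and 902 CPM in *pgph-2 o/e* (-0.45 ± 0.09, edgeR adjusted p = 0.00848). In each of the 4 pairs every library of the mutant lay below every library of its partner. The difference against WT on NGM missed the threshold without replicate 2 of WT.

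*cpr-1*, a gut cathepsin B at V:11975515-11976759 (plus strand), also responded to *pgph-2 o/e*. On NGM it had 385, 374, 429 and 225 CPM in *hlh-30*, against 522, 622, 405 and 512 CPM in WT, values that overlapped (-0.54 ± 0.18, edgeR adjusted p = 0.0726). In the *pgph-2 o/e* background it had 580, 478, 614 and 656 CPM in the double strain, against 2140, 1207, 1366 and 1619 CPM in *pgph-2 o/e*, far apart (-1.44 ± 0.19, edgeR adjusted p = 9.58e-05). On glucose the *hlh-30* libraries held 311, 451, 540 and 323 CPM and the WT libraries 909, 680, 905 and 817 CPM (-1.03 ± 0.18, edgeR adjusted p = 0.00311). There 989, 835, 1097 and 1071 CPM in the double strain were not called against 1117, 1057, 1149 and 1126 CPM in *pgph-2 o/e* (-0.19 ± 0.08, edgeR adjusted p = 0.14). Of the remaining cathepsin B-like genes *cpr-9* fell against WT on glucose (-0.63) and against *pgph-2 o/e* on NGM (-0.57), *cpr-5* fell against *pgph-2 o/e* on glucose (-0.34), and *cpr-8* was called in none of the 4.

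**Figure D1:**
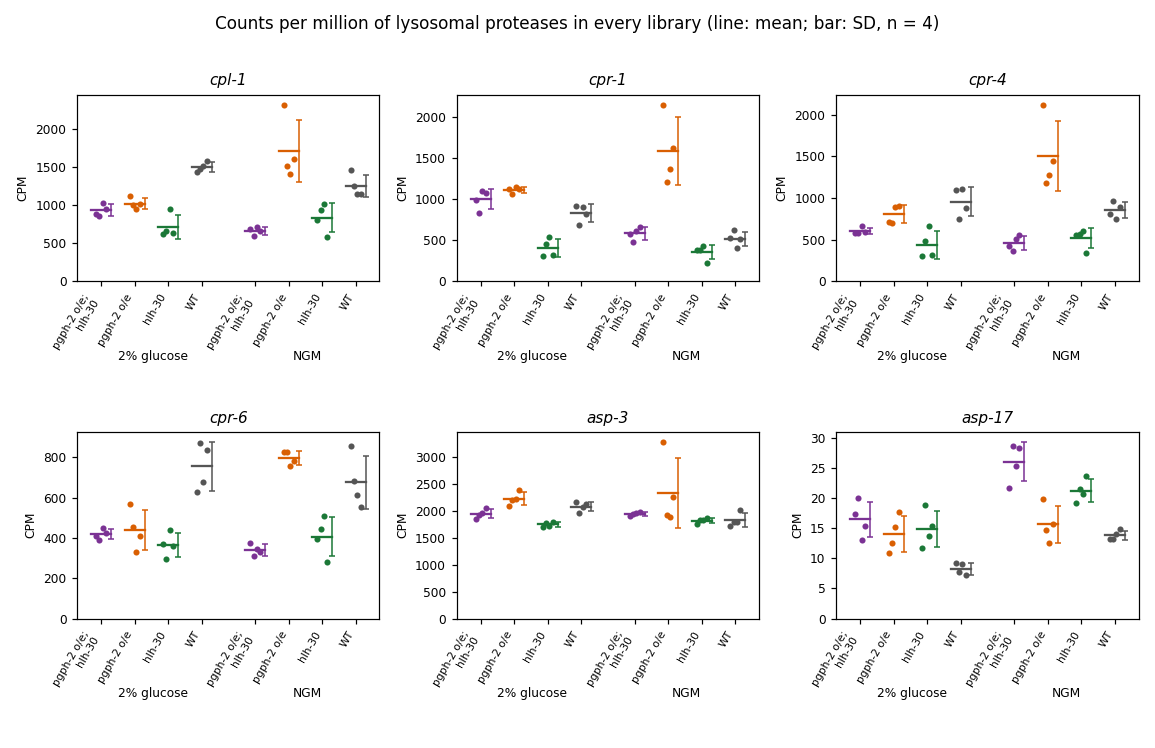
CPM (linear axes from 0) of 6 proteases in every library; each point is 1 library, the line is the mean of 4 and the bar its SD, with 2% glucose on the left and NGM on the right of each panel. *cpl-1*, *cpr-4* and *cpr-6* lie lower in *hlh-30* than in WT on both media, *cpr-1* is highest in *pgph-2 o/e* on NGM, and *asp-17* goes the other way, with 11.8 to 18.8 CPM in *hlh-30* against 7.23 to 9.25 CPM in WT on glucose.

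Of the abundant aspartic proteases, *asp-6* fell by 0.49 on the log2 scale in *hlh-30* relative to WT on glucose, and *asp-1*, *asp-3* and *asp-5* changed by less where they were called. *asp-3*, a cathepsin D-like protease that acts in necrotic cell death, fell on glucose in both backgrounds: 1704, 1785, 1731 and 1798 CPM in *hlh-30*, against 2169, 1971, 2073 and 2134 CPM in WT (-0.25 ± 0.04, edgeR adjusted p = 0.00306). The *pgph-2 o/e* pair had 1858, 1929, 1975 and 2062 CPM in the double strain, against 2099, 2202, 2236 and 2390 CPM in *pgph-2 o/e* (-0.22 ± 0.06, edgeR adjusted p = 0.0303). Neither pair overlapped. The second call was lost when any 1 of 5 libraries was left out. On NGM *asp-3* had 1768, 1829, 1834 and 1868 CPM in *hlh-30*, against 1715, 1797, 1804 and 2015 CPM in WT, and was not called (0.00 ± 0.06). The double strain had 1908, 1948, 1960 and 1978 CPM, against 3280, 1922, 1894 and 2266 CPM in *pgph-2 o/e*, also not called (-0.26 ± 0.19, and -0.05 without replicate 1 of *pgph-2 o/e*).

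*asp-5* behaved likewise on glucose, with 856, 915, 858 and 921 CPM in *hlh-30*, against 1037, 925, 1026 and 1012 CPM in WT (-0.18 ± 0.05, edgeR adjusted p = 0.0208). Within the *pgph-2 o/e* background the values were 884, 951, 908 and 917 CPM in the double strain, against 1010, 1090, 1093 and 1129 CPM in *pgph-2 o/e* (-0.27 ± 0.06, edgeR adjusted p = 0.0107). The first of these differences missed the threshold without replicate 3 or 4 of WT or replicate 1 of *hlh-30*. On NGM its group means were 947 ± 19.5 CPM in *hlh-30* and 975 ± 105 CPM in WT, and 971 ± 27.3 CPM in the double strain and 1145 ± 354 CPM in *pgph-2 o/e* (SD, n = 4 each), neither called. Without replicate 1 of *pgph-2 o/e* the second difference was 0.01 on the log2 scale.

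*asp-4*, the other cathepsin D-like protease of necrosis, was called in none of these 4 comparisons with all libraries. Without replicate 1 of *pgph-2 o/e* it was called higher in the double strain on NGM (0.23, edgeR adjusted p = 0.00913). It measured 356, 395, 372 and 382 CPM in *hlh-30*, against 366, 382, 403 and 401 CPM in WT on NGM (-0.04 ± 0.06), and 310, 333, 316 and 323 CPM in *hlh-30*, against 345, 331, 329 and 332 CPM in WT on glucose (-0.06 ± 0.04). In the *pgph-2 o/e* background it averaged 431 ± 6.29 CPM in the double strain and 409 ± 77.8 CPM in *pgph-2 o/e* on NGM, and 368 ± 14.5 CPM in the double strain and 365 ± 30.4 CPM in *pgph-2 o/e* on glucose (SD, n = 4 each). *asp-1*, the most abundant member, was called in 1 of the 4 with all libraries (and, without replicate 1 of *pgph-2 o/e*, also on NGM, at -0.20). It had 4102, 4748, 4560 and 4641 CPM in the double strain, against 5153, 5928, 5464 and 5853 CPM in *pgph-2 o/e* on glucose (-0.34 ± 0.07, edgeR adjusted p = 0.00826), with no overlap. Against WT it had 5310, 5917, 5750 and 6254 CPM in *hlh-30* and 4661, 5561, 5068 and 6472 CPM in WT on NGM, and 4300, 4526, 4226 and 4543 CPM in *hlh-30* and 5001, 4105, 4998 and 4533 CPM in WT on glucose, overlapping both times.

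A pair of proteases went up. *asp-17*, known with *cpr-3* as a gene that cold induces through the factor ZIP-10, had 19.2, 21.5, 20.6 and 23.7 CPM in *hlh-30*, against 13.2, 13.1, 14.1 and 14.8 CPM in WT on NGM (0.63 ± 0.10, edgeR adjusted p = 0.00432). In the *pgph-2 o/e* background it had 21.7, 28.7, 25.4 and 28.3 CPM in the double strain, against 19.8, 14.8, 12.5 and 15.7 CPM in *pgph-2 o/e* (0.74 ± 0.15, edgeR adjusted p = 0.0022). All mutant libraries were above all partners. On glucose it rose against WT (11.8, 18.8, 13.7 and 15.3 CPM in *hlh-30*, against 9.25, 7.67, 9.01 and 7.23 CPM in WT; 0.84 ± 0.16) and was not called against *pgph-2 o/e* (17.4, 19.9, 13.1 and 15.4 CPM in the double strain, against 10.9, 12.6, 15.2 and 17.7 CPM in *pgph-2 o/e*; 0.19 ± 0.17). *cpr-3*, named here after its values were seen, was above 0 in the same 4 comparisons (0.40, 0.46, 0.73 and 0.33) and was called against WT on glucose and against *pgph-2 o/e* on NGM.

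Most V-ATPase subunits did not fall with the cathepsins. In *hlh-30* relative to WT, 7 of 20 subunits rose and none fell on NGM, where 6.08% of all genes rose and 9.08% fell. On glucose 10 rose and 1, *vha-18*, fell, where 21.4% rose and 23.7% fell. The log2 fold change was positive for 19 of the 20 on each medium. The rises were small: the median log2 fold change of the 20 subunits was 0.17 on NGM and 0.19 on glucose, and no subunit passed a 2-fold change. On NGM the count was fragile: leaving out 1 of the 8 libraries gave between 1 and 11 members called higher and between 0 and 3 called lower, and fewer than 5 were higher in 7 of these 8 fits. In the double strain relative to *pgph-2 o/e*, 1 rose and 1 fell on NGM, where 19.8% and 22.6% of all genes did, with a median of 0.06 (0.19 without replicate 1 of *pgph-2 o/e*). None of the 20 was called on glucose, where 6.19% and 7.05% were, with a median of -0.02 (by edgeR, and none with DESeq2). The NGM count depended on the library that stands apart: without replicate 1 of *pgph-2 o/e*, 13 of 20 subunits and 5 of 20 proteases rose, against 24.1% of all genes, and 1 subunit and 9 proteases fell, against 25.5%.

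**Figure D2:**
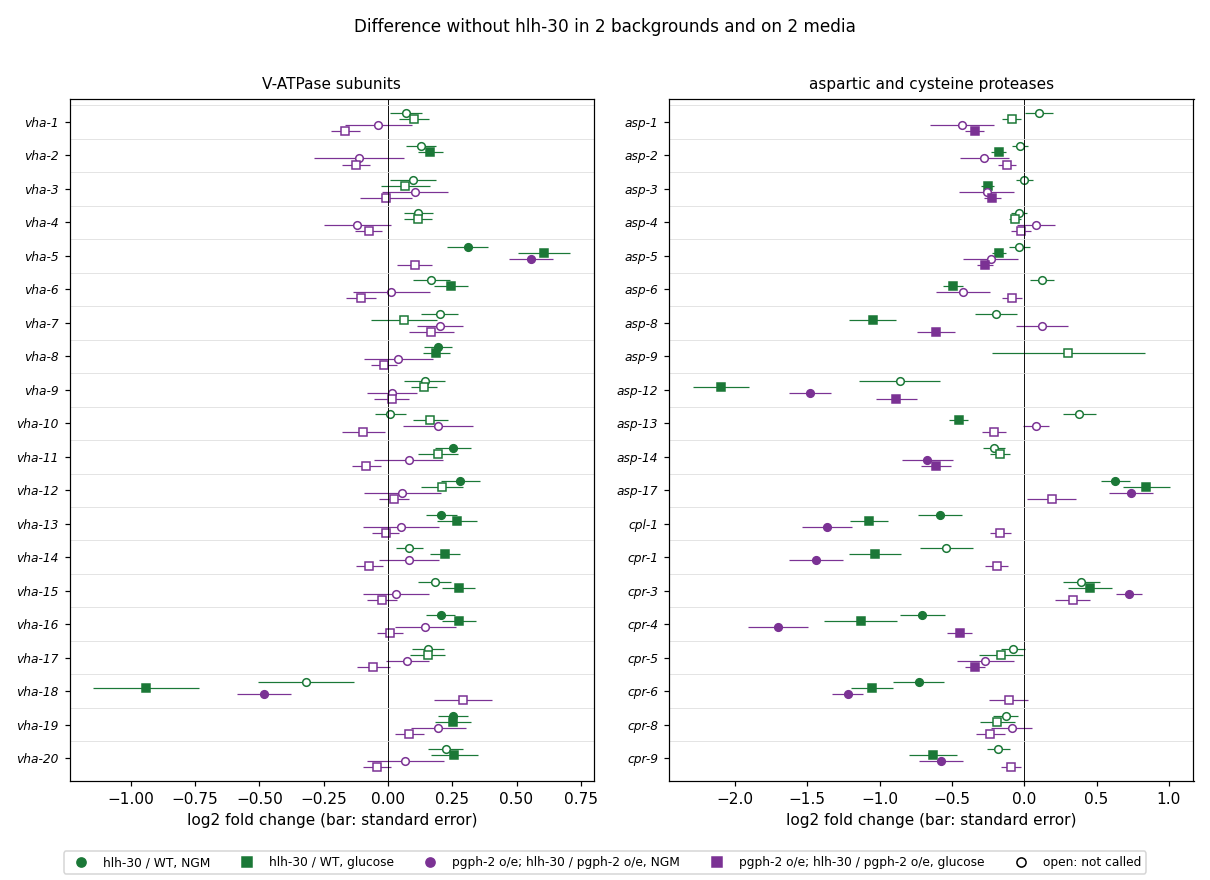
Log2 fold change without *hlh-30* for every member tested, with V-ATPase subunits on the left and proteases on the right (each on its own horizontal scale); points are fitted values, bars standard errors, circles NGM, squares glucose, and filled points have an adjusted p of at most 0.05. Most V-ATPase subunits lie between 0 and 0.3 in *hlh-30* relative to WT, with *vha-5* above and *vha-18* below, whereas *cpl-1*, *cpr-1*, *cpr-4*, *cpr-6* and *asp-12* lie well below 0.

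*vha-5*, an a subunit of V0 known from the excretory canal and the epidermis (IV:8303968-8307369, plus strand), rose most. On NGM it had 264, 247, 249 and 280 CPM in *hlh-30*, against 182, 213, 216 and 233 CPM in WT (0.31 ± 0.08, edgeR adjusted p = 0.033). The *pgph-2 o/e* pair had 265, 268, 277 and 265 CPM in the double strain, against 195, 179, 180 and 182 CPM in *pgph-2 o/e* (0.55 ± 0.09, edgeR adjusted p = 0.000319). On glucose it had 241, 266, 243 and 241 CPM in *hlh-30*, against 183, 132, 184 and 149 CPM in WT (0.61 ± 0.10, edgeR adjusted p = 0.00264). In these 3 pairs the mutants lay above their partners without overlap; the first call was lost when any 1 of 6 of the 8 libraries was left out. The fourth pair overlapped, with 231, 242, 212 and 220 CPM in the double strain and 191, 202, 210 and 221 CPM in *pgph-2 o/e* on glucose (0.10 ± 0.07). Excretory canal markers (4 genes) had a higher mean sum in the first 3 pairs, but not every gene rose. On NGM they summed to 95.4 to 143 CPM in *hlh-30* and 66.8 to 96.4 CPM in WT. There 2 of the 4 genes lay above 0 on the log2 scale and none was called. On glucose they summed to 136 to 184 CPM in *hlh-30* and 48.6 to 93.9 CPM in WT, with 2 called higher and none lower. In the double strain on NGM they summed to 116 to 127 CPM, against 73.5 to 89.9 CPM in *pgph-2 o/e*, with 2 called higher and 1 lower. Their part in the rise of *vha-5* was not tested.

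*vha-6*, the a subunit of the apical membrane of the intestine, had 687, 704, 733 and 784 CPM in *hlh-30*, against 570, 679, 663 and 690 CPM in WT on NGM, an overlap (0.17 ± 0.07, edgeR adjusted p = 0.13). On glucose 582, 615, 583 and 607 CPM in *hlh-30* lay above 548, 443, 539 and 481 CPM in WT (0.24 ± 0.07, edgeR adjusted p = 0.0167). *vha-12*, the B subunit of V1, had 739, 786, 784 and 834 CPM in *hlh-30*, against 575, 665, 627 and 733 CPM in WT on NGM, with no overlap (0.28 ± 0.08, edgeR adjusted p = 0.0374). That call was lost in 7 of the 8 fits that left out 1 library, those without replicates 1 to 3 of WT or without any replicate of *hlh-30*. The intestine markers (6 genes) were higher in sum in the same groups, 2742 to 3341 CPM in *hlh-30* and 1822 to 2563 CPM in WT on NGM, and 2280 to 2524 CPM in *hlh-30* and 1646 to 2072 CPM in WT on glucose. Gene by gene they were mixed: on each medium 3 of the 6 were called higher and 1 was called lower. In whole animals fewer cells of a type and less RNA per cell cannot be told apart, and the part of these markers in the V-ATPase values was not tested.

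*vha-18*, the second H subunit, named here after its values were seen, was the exception to the rises. It had 10.04, 12.7, 20.1 and 12.9 CPM in *hlh-30*, against 23.9, 29.8, 23.7 and 29.1 CPM in WT on glucose (-0.94 ± 0.20, edgeR adjusted p = 0.00697). Within the *pgph-2 o/e* background the values were 19.5, 16.3, 19.6 and 18.1 CPM in the double strain, against 23.7, 27.2, 28.2 and 24.2 CPM in *pgph-2 o/e* on NGM (-0.48 ± 0.10, edgeR adjusted p = 0.00297). The abundant H subunit *vha-15* went the other way on glucose, with 397, 386, 357 and 404 CPM in *hlh-30*, against 337, 287, 337 and 313 CPM in WT (0.28 ± 0.06, edgeR adjusted p = 0.00902). In both genes the groups did not overlap. Other V-ATPase genes whose names fall outside the *vha-* series were mixed. *unc-32*, a neuronal a subunit, fell in *hlh-30* on NGM (-0.38) and glucose (-0.23). *spe-5*, a B subunit needed in sperm, fell in *hlh-30* on glucose (-0.999) and in the double strain on NGM (-0.68). *rbc-1*, whose product assembles the pump, rose in *hlh-30* on both media (0.27 and 0.35) and in the double strain on NGM (0.44).

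**Figure D3:**
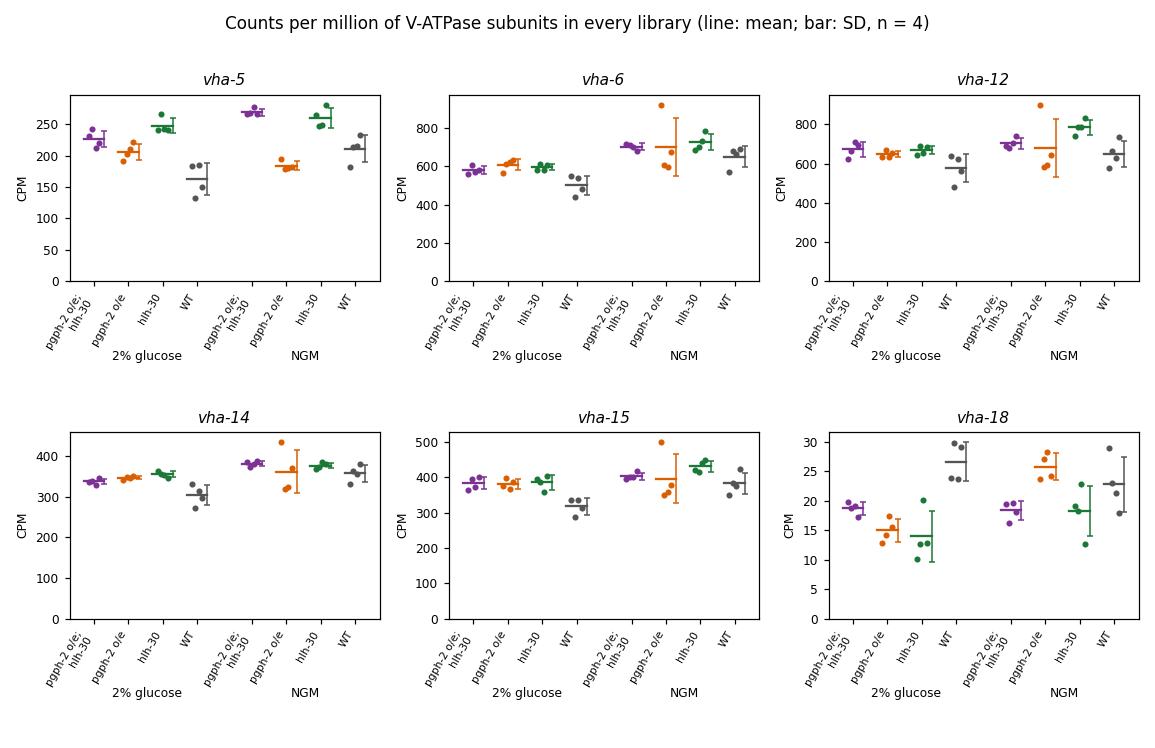
CPM (linear axes from 0) of 6 V-ATPase subunits in every library; points are libraries, lines means of 4 and bars SDs, with 2% glucose on the left and NGM on the right of each panel. Replicate 1 of *pgph-2 o/e* on NGM is the high point of *vha-6*, *vha-12*, *vha-14* and *vha-15*; *vha-5* lies higher in *hlh-30* than in WT on both media, and *vha-18* lower on glucose.

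A stricter view asked for the same call in both backgrounds, a pair of comparisons that share no library. On NGM 39 members could be tested in both. *cpl-1*, *cpr-4* and *cpr-6* were lower in both, where 6.93% of all genes were, and *vha-5* and *asp-17* were higher in both, where 4.01% were. Another 12 members were called in 1 comparison only, against 35.1% of all genes, and 22 in neither, against 53.8%. On glucose *asp-3*, *asp-5*, *asp-8*, *asp-12* and *cpr-4* were lower in both, against 1.04% of all genes, and none was higher in both, against 1.85%. Another 23 were called in 1 only, against 41.9%, and 11 in neither, against 50.1%. No member was called with opposite signs in the 2 backgrounds on either medium, where 0.142% of all genes were on NGM and 5.12% on glucose.

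*pgph-2 o/e* itself moved few members on NGM and more on glucose. On NGM *cpr-1*, *cpr-4* and *asp-12* rose relative to WT and none of the 39 tested fell, where 4.37% of all genes rose and 2.53% fell. Without replicate 1 of *pgph-2 o/e* these 3 were still called higher, and *asp-8* (-0.56) and *cpr-8* (-0.39) were called lower. No share of all genes is given for that fit. With all libraries *cpr-1* rose most, by 1.62 ± 0.20 (edgeR adjusted p = 0.000779), and all 4 *pgph-2 o/e* libraries lay above WT. *cpr-4* followed at 0.82 ± 0.19 (edgeR adjusted p = 0.0284) and *asp-12* at 1.08 ± 0.25 (edgeR adjusted p = 0.0231), both also without overlap. *cpr-4* lost its call without replicate 2, 3 or 4 of WT or replicate 4 of *pgph-2 o/e*, and *asp-12* without replicate 2 or 3 of WT or replicate 4 of *pgph-2 o/e*. On glucose 6 subunits and 4 proteases rose, against 19.5% of all genes, and 1 subunit and 4 proteases fell, against 22.0%. Those that rose were *vha-2*, *vha-5*, *vha-6*, *vha-11*, *vha-14*, *vha-15*, *asp-1*, *asp-17*, *cpr-1* and *cpr-3*, and those that fell were *vha-18*, *cpl-1*, *cpr-6*, *cpr-9* and *asp-12*. *cpl-1* fell by 0.56 and *cpr-6* by 0.79 on the log2 scale. Markers moved in the same comparison. Intestine markers summed to 2439 to 2705 CPM in *pgph-2 o/e* and 1646 to 2072 CPM in WT on glucose (5 of 6 genes rose). Sperm genes summed to 223 to 620 CPM in *pgph-2 o/e* and 1649 to 3495 CPM in WT (41 of 42 tested fell), oocyte genes to 183 to 223 CPM and 370 to 846 CPM (12 of 12 fell), and vitellogenins to 51.2 to 89.9 CPM and 273 to 921 CPM (6 of 6 fell). Their part in the members' differences was not tested.

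In animals without *hlh-30*, 7 of 40 members were called with the transgene on NGM and 2 on glucose. Comparing the double strain with *hlh-30* on NGM, *cpr-1*, *asp-4* and *cpr-3* rose, against 5.80% of all genes, and *asp-1*, *vha-11*, *asp-13* and *asp-14* fell, against 5.81%. On glucose *asp-6* and *cpr-1* rose, against 1.75%, and none of the 40 tested fell in edgeR, against 2.51% (1 fell with DESeq2). *cpr-1* thus rose with the transgene in all 4 settings: by 0.71 ± 0.17 on NGM and 1.27 ± 0.17 on glucose without *hlh-30*, and by 1.62 on NGM and 0.42 on glucose with it. The first of these calls was lost without replicate 1 or 2 of *hlh-30* or replicates 1, 3 or 4 of the double strain. The NGM calls of *asp-1* and *asp-4* were lost in 5 and 6 of the fits that left out 1 library.

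The difference between the transgene's effect without and with *hlh-30* was tested directly. On NGM it passed for none of the 40 members tested in edgeR, above 0 (2.27% of all genes) or below (1.67%), although *cpr-4* (-0.97 ± 0.27, edgeR adjusted p = 0.0533), *cpl-1* (-0.75) and *cpr-1* (-0.87) were the lowest; DESeq2 called 3 below 0. On glucose 8 members passed above 0, against 21.2% of all genes, and 8 below, against 17.3%. Above 0 were *vha-18* (1.27), *asp-12* (1.25), *cpr-6* (0.99), *cpl-1* (0.95), *cpr-1* (0.88), *cpr-9* (0.58), *asp-6* (0.45) and *asp-13* (0.28). Below 0 were 7 V-ATPase subunits, from -0.47 for *vha-5* to -0.23 for *vha-1* and *vha-16*, and *asp-14* (-0.41).

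Members raised by *pgph-2 o/e* and with a smaller rise, or none, when *hlh-30* was missing were none on NGM, where 1.04% of all genes were, and *vha-2*, *vha-5*, *vha-6*, *vha-14* and *vha-15* on glucose, where 13.6% were. *vha-14*, the D subunit of the V1 stalk, had 335, 339, 330 and 346 CPM in the double strain, 342, 348, 347 and 352 CPM in *pgph-2 o/e*, 364, 356, 354 and 347 CPM in *hlh-30*, and 332, 273, 315 and 296 CPM in WT. WT had the lowest mean, although its highest library lay above the lowest of the double strain, and every *hlh-30* library lay above every double strain library. Its rise in *pgph-2 o/e* was lost in 5 of the 8 fits that left out 1 library, that of *vha-2* in 3 and that of *vha-5* in 2. *vha-15* had 366 to 402 CPM in the double strain, 367 to 399 CPM in *pgph-2 o/e*, 357 to 404 CPM in *hlh-30* and 287 to 337 CPM in WT, which lay below the others without overlap. *vha-2* had 936 to 973 CPM in the double strain, 969 to 1075 CPM in *pgph-2 o/e*, 969 to 1033 CPM in *hlh-30* and 814 to 936 CPM in WT, whose highest library met the lowest of the double strain. For *vha-6* the the double strain libraries held 558, 608, 571 and 580 CPM, the *pgph-2 o/e* libraries 568, 615, 621 and 634 CPM, and the WT libraries 548, 443, 539 and 481 CPM. In none of these 5 subunits was the double strain called below *pgph-2 o/e*. WT on glucose had the lowest mean of the 8 groups for 16 of the 20 subunits, and *hlh-30* on NGM the highest for 13; among the 19 proteases that reached 1 FPKM in some group, *hlh-30* on glucose was lowest for 11 and *pgph-2 o/e* on NGM highest for 10.

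With glucose 1 member of the 39 tested in WT passed a 2-fold change. *asp-12*, an aspartic protease at V:8269254-8272058 (plus strand) beside *asp-6* and *asp-5*, had 707, 598, 720 and 676 CPM in WT on glucose, against 24.9, 56.0, 45.1 and 63.3 CPM in WT on NGM (3.84 ± 0.25, edgeR adjusted p = 6.85e-05), a 14.4-fold rise. In *hlh-30* it had 111, 149, 227 and 145 CPM on glucose, against 35.8, 26.8, 19.3 and 21.3 CPM on NGM (2.63 ± 0.26, edgeR adjusted p = 0.000743). The difference between these 2 responses, -1.24 ± 0.36, did not pass (edgeR adjusted p = 0.0906). In the double strain it had 102, 98.3, 135 and 108 CPM on glucose and 36.9, 29.8, 40.3 and 36.3 CPM on NGM, and in *pgph-2 o/e* 174, 231, 241 and 155 CPM on glucose and 128, 85.7, 87.2 and 99.7 CPM on NGM. On glucose the genotype means thus ranked, from low to high, the double strain, *hlh-30*, *pgph-2 o/e* and WT, and the drop against WT passed in *hlh-30* (-2.10 ± 0.19, edgeR adjusted p = 0.000365) and in *pgph-2 o/e* (-1.76 ± 0.14, edgeR adjusted p = 2.45e-05). The *hlh-30* and the double strain libraries were not called apart (-0.54 ± 0.19, edgeR adjusted p = 0.13). Without *hlh-30* in the *pgph-2 o/e* background it fell on NGM (-1.48) and on glucose (-0.89).

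**Figure D4:**
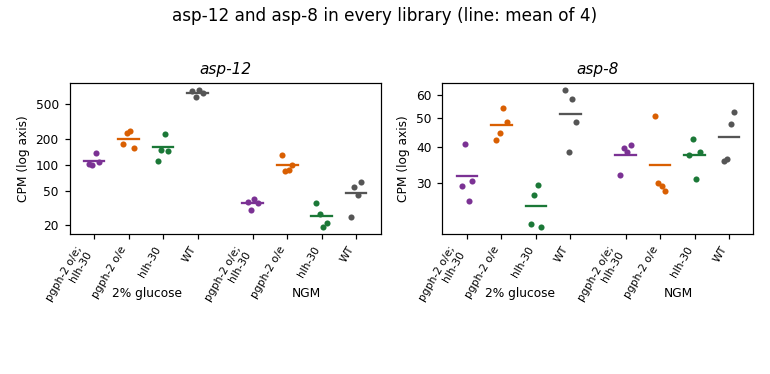
*asp-12* and *asp-8* in every library, in CPM on log axes; points are libraries and lines the mean of 4, with 2% glucose on the left and NGM on the right. *asp-12* reaches 598 to 720 CPM in WT on glucose and stays at 24.9 to 63.3 CPM in WT on NGM; *asp-8* is lowest in *hlh-30* on glucose, 21.4 to 29.6 CPM.

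In WT, *cpr-1* also rose on glucose (0.69 ± 0.13, edgeR adjusted p = 0.0184), a call lost without replicate 4 of NGM or replicate 3 or 4 of glucose, and *asp-17* (-0.73), *asp-14* (-0.78) and *vha-6* (-0.36) fell, so that 2 of 39 members rose, against 1.19% of all genes, and 3 fell, against 2.42%. The fall of *vha-6* was at the threshold (edgeR adjusted p = 0.0497) and was lost in 6 of the 8 fits that left out 1 library. In *hlh-30* 12 of 40 fell on glucose, against 5.41% of all genes, and *asp-12* alone rose, against 7.55%. Those that fell were 5 V1 or V0 subunits (*vha-6*, *vha-8*, *vha-11*, *vha-12* and *vha-13*, between -0.26 and -0.17) and 7 proteases, among them *asp-1* with 4300, 4526, 4226 and 4543 CPM on glucose, against 5310, 5917, 5750 and 6254 CPM on NGM (-0.38 ± 0.05, edgeR adjusted p = 0.00407). *asp-8* had 21.8, 27.5, 29.6 and 21.4 CPM in *hlh-30* on glucose, against 37.6, 42.4, 31.0 and 38.3 CPM in *hlh-30* on NGM (-0.55), without overlap.

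*asp-8* was lower without *hlh-30* on glucose, with the values just given against 62.1, 38.4, 58.0 and 48.5 CPM in WT (-1.05 ± 0.16, edgeR adjusted p = 0.00202). In the *pgph-2 o/e* background it had 29.5, 40.8, 26.2 and 30.7 CPM in the double strain, against 42.3, 44.5, 54.2 and 48.4 CPM in *pgph-2 o/e* (-0.61 ± 0.13, edgeR adjusted p = 0.0129). On NGM it was not called, at 32.01, 39.5, 38.3 and 40.4 CPM in the double strain, against 50.7, 30.01, 29.5 and 28.4 CPM in *pgph-2 o/e* (0.12 ± 0.18); without replicate 1 of *pgph-2 o/e*, the high library, it rose by 0.37 (edgeR adjusted p = 0.006). Whether the loss of *hlh-30* acted differently on the 2 media was tested across all genes: *asp-6* (-0.62 ± 0.10, edgeR adjusted p = 0.0165) and *asp-13* (-0.84 ± 0.15, edgeR adjusted p = 0.0188) passed below 0, where 0.617% of all genes did, and none of the 40 members above 0, where 0.832% did (none with DESeq2 either). Neither was called when replicate 4 of WT on glucose was left out. *asp-13* had 224, 239, 234 and 229 CPM in *hlh-30*, against 317, 338, 284 and 324 CPM in WT on glucose. On NGM it had 374, 384, 402 and 318 CPM in *hlh-30*, against 313, 314, 219 and 293 CPM in WT. The mutants thus lay below WT on glucose and above WT on NGM, where the difference (0.38 on the log2 scale) was not called. *asp-6* and *asp-13* were named after their values were seen.

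Other lysosomal genes gave a frame. Of 17 lysosomal membrane proteins, none fell and 1 rose in *hlh-30* relative to WT on NGM (9.08% and 6.08% of all genes), and 3 fell and 1 rose on glucose (23.7% and 21.4%). Relative to *pgph-2 o/e*, 5 fell and 1 rose in the double strain on NGM (22.6% and 19.8%), and 3 fell and 2 rose on glucose (7.05% and 6.19%). Of the other lysosomal hydrolases, 2 of 15 fell and 3 rose in *hlh-30* on each medium. For the double strain 4 of 16 fell and 4 rose on NGM, and none of 15 fell and 4 rose on glucose, beside the same shares of all genes. *cpz-1*, a cathepsin Z, was the lowest of these hydrolases in each of the 4 comparisons. It fell by 1.46 on NGM and 1.42 on glucose in *hlh-30*, and by 1.73 in the double strain on NGM on the log2 scale. The -0.42 on glucose was not called. *nuc-1*, a lysosomal DNase, and *asah-1*, an acid ceramidase, showed on NGM what no member did: they rose in *pgph-2 o/e* (0.91 and 1.80), and that rise was smaller without *hlh-30* (differences of -0.62 and -1.22, both called). *cpz-1*, *nuc-1* and *asah-1* were named after their values were seen.

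Marker genes moved with these results. Sperm genes (45 genes, at most 2 of them without counts in a group) summed to 78.5 to 721 CPM in *hlh-30* and 1649 to 3495 CPM in WT on glucose, to 507 to 973 CPM in the double strain and 2583 to 4335 CPM in *pgph-2 o/e* on NGM, and to 743 to 1211 CPM in the double strain and 223 to 620 CPM in *pgph-2 o/e* on glucose. The 3 groups with the most sperm RNA, *pgph-2 o/e* on NGM, WT on glucose and WT on NGM, were also the 3 highest in *cpl-1*. On glucose *cpr-1* was higher in *pgph-2 o/e* than in WT (0.42 on the log2 scale), and sperm genes were lower there. Hypodermis markers (5 genes) summed to 545 to 1297 CPM in *hlh-30* and 1788 to 2802 CPM in WT on NGM, and to 1000 to 1539 CPM in *hlh-30* and 2313 to 2717 CPM in WT on glucose. Gene by gene, 2 of these 5 were called lower and 1 higher on NGM, and 3 lower and 1 higher on glucose. Oocyte markers (12 genes, all with counts in each group) ran from 151 to 232 CPM in *hlh-30* and 250 to 405 CPM in WT on NGM, and from 130 to 211 CPM in *hlh-30* and 370 to 846 CPM in WT on glucose. With the sperm gene level added as a covariate, no member was called in *hlh-30* relative to WT on either medium nor in the double strain relative to *pgph-2 o/e* on NGM, and 4 were lower, *asp-12* and *cpr-4* among them, in the last comparison on glucose; of all genes, 1.55%, 0.424%, 0.0921% and 2.95% were then called. Sperm RNA and genotype overlapped little in these groups, so their parts in the cathepsin and V-ATPase differences cannot be told apart here.

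**Figure D5:**
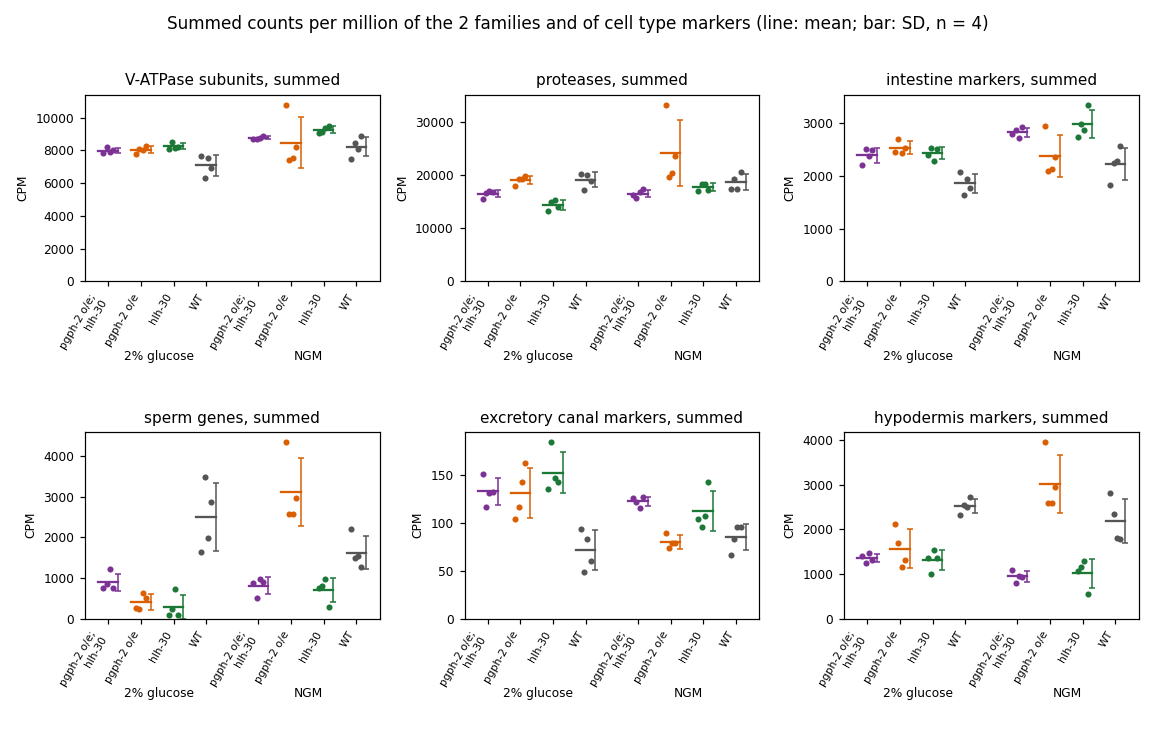
Summed CPM (linear axes from 0) of the V-ATPase subunits, the proteases and 4 marker lists in every library; points are libraries, lines means of 4 and bars SDs, with 2% glucose on the left and NGM on the right. The summed proteases are lowest in *hlh-30* on glucose, 13270 to 15330 CPM against 17240 to 20220 CPM in WT, and replicate 1 of *pgph-2 o/e* on NGM stands above all other libraries at 33260 CPM.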

How the data were processed

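Whole-animal poly-A RNA from 4 genotypes on 2 media was sequenced in 4 biological replicates per group. Per the labels and the study's methods, the authors aligned reads to WBcel235 and counted them per gene with featureCounts 1.5.0-p3; the deposited table holds raw counts, with no normalization. Its symbol column is empty, so symbols were taken from RefSeq locus tags (45305 of 46589 IDs matched).

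Genes passing filterByExpr (minimum count 10) were tested with edgeR 4.0.16 (TMM, quasi-likelihood F test, R 4.3.3), fitted on the groups of each comparison, with Benjamini-Hochberg adjustment over all genes tested. A call needed an adjusted p of at most 0.05. CPM used TMM factors over 32 libraries, and FPKM divided it by the deposited gene length. No replicate block was used in the reported fits. Alternatives were DESeq2 1.42.0, its size factors, other count filters, a replicate block, a 2-fold minimum, a sperm gene covariate and leaving out each library. No 2 libraries of a group agreed within sampling noise (chi-square per degree of freedom 4.51 or more).

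The members and gene lists were chosen with earlier results of these data known. Values in every library are given for members called in both *hlh-30* comparisons of a medium (at most 4 subunits and 8 proteases), members raised by *pgph-2 o/e* and dependent on *hlh-30*, and 8 members fixed by name; others given per library are marked as named after their values were seen. Library totals were 16750042 to 29794842 counts. P-values set each difference between groups against the spread between libraries of the same group. Ribosomal RNA genes took 5.11 to 8.03% of the counts.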

Additional observations from a re-analysis of the deposited data

Results flagged for a closer look

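In 5 of 136 sets of 4 libraries (17 members in 8 groups), 1 library lay far from the other 3 by Dixon's test; chance gives about 1 in 20. In *hlh-30* on glucose, *cpl-1* was high in replicate 3 (948.8 CPM, next 660.7) and *vha-5* in replicate 2 (265.5 CPM, next 242.8). In the double strain on glucose, *cpr-4* was high in replicate 3 (660.7 CPM, next 588.6). In *pgph-2 o/e* on NGM, *vha-5* (195.0 CPM, next 181.6) and *asp-8* (50.73 CPM, next 30.01) were high in replicate 1, the library with the highest summed levels of both families.

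The effect of *pgph-2 o/e* on glucose differed between animals without and with *hlh-30* for 16 members by the interaction term in edgeR. The difference was above 0 for *vha-18* (1.27), *asp-12* (1.25), *cpr-6* (0.99), *cpl-1* (0.95), *cpr-1* (0.88), *cpr-9* (0.58), *asp-6* (0.45) and *asp-13* (0.28). It was below 0 for *vha-5* (-0.47), *asp-14* (-0.41), *vha-6* (-0.31), *vha-14* (-0.26), *vha-15* (-0.26), *vha-2* (-0.25), *vha-1* (-0.23) and *vha-16* (-0.23). These 16 stand beside 21.2% of all genes above 0 and 17.3% below. The effect of *hlh-30* loss differed between media for *asp-13* (-0.84) and *asp-6* (-0.62), and both calls were lost without replicate 4 of WT on glucose.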

How the results depend on the processing

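Calls changed more often than directions over 70 called values of the 17 members given per library by rule or fixed by name. Of their 1052 alternatives, 885 stayed called, 166 lost the call with their direction kept, and 1 changed sign (*vha-15* in the glucose interaction, 0.047 with the sperm gene level as covariate). Members named after their values were seen, such as *vha-18* and *asp-13*, are not among the 17. Counts below are members called higher and lower. The sperm covariate left 0 and 0 in *hlh-30* against WT on NGM and on glucose and in the double strain against *pgph-2 o/e* on NGM, and 4 lower in that comparison on glucose; it left 0 higher for *pgph-2 o/e* against WT on NGM, 0 and 1 on glucose, and 0 and 0 in the glucose interaction and 0 lower in the *hlh-30* by glucose interaction. It raised the counts to 5 and 12 for the double strain against *hlh-30* on NGM, gave 1 and 1 there on glucose, 7 higher for glucose in WT and 3 higher for glucose in *hlh-30*; the cause was not tested. A 2-fold minimum left by its construction 0 in most comparisons, 6 lower in *hlh-30* against WT on glucose, 5 lower in the double strain against *pgph-2 o/e* on NGM, 1 lower for *pgph-2 o/e* against WT on glucose, 1 higher for the double strain against *hlh-30* on glucose, 1 higher for glucose in WT, and 2 higher in the glucose interaction.

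DESeq2 gave 5 lower in *hlh-30* against WT on NGM, 7 lower and, on glucose, 4 higher and 1 lower in the double strain against *hlh-30*, 7 lower for glucose in WT, 3 lower in the NGM interaction, 13 lower in the glucose interaction and 5 lower in the *hlh-30* by glucose interaction. With no filter 1 was higher in the double strain against *pgph-2 o/e* on glucose, 1 higher against *hlh-30* on glucose, 1 lower in the NGM interaction and 15 lower in the glucose interaction; DESeq2's size factors gave 1 in the comparison with *hlh-30* and in the NGM interaction. The replicate block, with 0 to 3 of 4 same-numbered pairs per comparison at a correlation over 0.1 (3 in the double strain against *hlh-30* on glucose), so that the numbers were not taken to pair the libraries, gave 5 higher in *hlh-30* against WT on glucose, 6 higher in *pgph-2 o/e* against WT on glucose, 1 higher on NGM and 4 higher and 2 lower on glucose in the double strain against *hlh-30*, and 1 higher and 1 lower for glucose in WT; it moved no other count by over 1.5 times. Every library correlated best with its own number in no comparison.

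Leaving out 1 library gave these ranges. In *hlh-30* against WT they were 1 to 11 higher and 0 to 3 lower on NGM, and 6 (without WT replicate 4) to 14 higher on glucose. In the double strain against *pgph-2 o/e* they were 3 to 18 higher (18 without *pgph-2 o/e* replicate 1) on NGM and 0 to 1 higher on glucose. In *pgph-2 o/e* against WT they were 1 to 3 higher and 0 to 2 lower on NGM, and 5 (without WT replicate 4) to 14 higher on glucose. In the double strain against *hlh-30* they were 0 to 4 higher and 2 to 9 lower on NGM, and 1 to 6 higher (6 without *hlh-30* replicate 3) and 0 to 1 lower on glucose. For glucose they were 1 to 3 higher and 2 to 9 lower in WT (9 without NGM replicate 1) and 6 to 13 lower in *hlh-30*. The NGM interaction had 0 to 1 higher and 0 to 4 lower, the glucose interaction 6 to 18 lower, and the *hlh-30* by glucose interaction 0 (without WT glucose replicate 4) to 8 lower (without *hlh-30* glucose replicate 3). Changing the scaling moved the median of all genes by at most 0.04 on the log2 scale.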
